A study of Homo sapiens with 6 samples.

Results

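The 36 genes described here encode proteins of the kinetochore and of the spindle assembly checkpoint. The rule names them by symbol, uses no measured value, and takes their rows from the deposited count tables, which hold 41471 gene symbols in the CDK16 knockdown experiment and 34157 in the rebastinib experiment. They comprise CENPA, 13 genes of the constitutive centromere-associated network (CCAN), CENPF, 4 genes of the Ndc80 complex, 3 of the Mis12 complex, 2 of the Knl1 complex, 6 of the checkpoint, 3 of the RZZ complex and 3 of the Ska complex. CASC5 is the files' name for the gene also called KNL1.

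The kinetochore is a layered protein assembly that forms on the centromere of each chromosome and holds it to spindle microtubules during mitosis. Nucleosomes with the histone variant CENP-A mark the site, the CCAN binds them throughout the cell cycle, and the Knl1, Mis12 and Ndc80 complexes, together the KMN network, bind the microtubule. Kinetochores without microtubules recruit TTK, BUB1, BUBR1, MAD1 and MAD2, and the checkpoint then delays anaphase. Transcripts of many of these genes are most abundant in late S phase, G2 and mitosis, so their level in a culture also depends on how many cells are dividing.

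MDA-MB-231, a human triple-negative breast cancer cell line, was used for both experiments. In the first, lentivirus delivered scramble-shRNA, CDK16-sh1 or CDK16-sh2, and infected cells were sorted to give 1 stable line for each hairpin. In the second, cells received the vehicle DMSO, 1 μM or 5 μM rebastinib (Reb), an inhibitor proposed to block CDK16, for 48 h. The paper describes Reb as acting on several kinases, Tie2 among them. It also reports that micromolar Reb lowered the viability of this cell line. The knockdown comparison asks what changes when CDK16 transcript is lowered and the Reb comparison asks what changes under the inhibitor. Each of the 6 conditions had 1 library, so no difference below has a replicate check, and a difference between libraries cannot be told apart from a difference between cultures. The measurements are on bulk RNA, in which fewer dividing cells and less RNA per dividing cell cannot be told apart.

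Total counts were 25838443 to 31955119 in the knockdown experiment and 37655548 to 50303269 in the Reb experiment. CDK16 went from 3223 counts with the scramble hairpin to 1360 with CDK16-sh1 and 846 with CDK16-sh2 (log2 fold changes −1.52 and −1.82). The line's markers VIM, CD44, AXL and CAV1 were present in all libraries, at 3.95 RPKM or more, while ESR1 and PGR had at most 12 and 16 counts and CDH1 at most 53. The list of markers expected low also held ERBB2, GATA3, FOXA1 and leukocyte and fibroblast markers. Their values are not given here, so this check is partial. Mitochondrial genes took 10.4% to 11.3% of the counts in scramble and CDK16-sh1 and 16.2% in CDK16-sh2. They took 7.19% and 8.30% with DMSO and 1 μM and 16.4% at 5 μM. All 36 genes passed the filter of a mean of 1 CPM (a count scaled to library size) or more, among 15295 genes in the knockdown experiment and 15655 in the Reb experiment. Log2 fold changes are those of TMM-scaled counts, in which a factor estimated over all genes balances the libraries, and RPKM is the count per gene length and library total. The lowest count of any of the 36 genes was 134 in the knockdown experiment and 29 in the Reb experiment.

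Promoters of genes transcribed late in the cell cycle often carry a cell cycle genes homology region (CHR), whose usual core is TTTGAA, and CCAAT boxes. RefSeq promoter windows of GRCh38.p14, from 250 bases before to 50 bases after the start, were matched by symbol for 29 of the 36 genes. Printed from 100 bases before the start, on the gene's strand, are the 5 matched genes that were lowest at 5 μM (SPC24, NDC80, DSN1, BUB1B and CENPA) and the 1 that was highest (CENPC). Capitals mark TTTGAA or its reverse TTCAAA.
SPC24, chr19:11155763-11155882, minus strand: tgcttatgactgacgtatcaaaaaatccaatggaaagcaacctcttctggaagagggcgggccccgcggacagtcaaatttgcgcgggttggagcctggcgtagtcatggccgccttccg
NDC80, chr18:2571457-2571576, plus strand: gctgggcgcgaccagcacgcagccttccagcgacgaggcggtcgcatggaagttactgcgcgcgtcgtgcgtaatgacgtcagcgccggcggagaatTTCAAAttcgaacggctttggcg
BUB1B, chr15:40160969-40161088, plus strand: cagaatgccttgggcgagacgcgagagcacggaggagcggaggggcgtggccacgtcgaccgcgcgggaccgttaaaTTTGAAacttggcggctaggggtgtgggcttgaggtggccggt
CENPA, chr2:26785956-26786075, plus strand: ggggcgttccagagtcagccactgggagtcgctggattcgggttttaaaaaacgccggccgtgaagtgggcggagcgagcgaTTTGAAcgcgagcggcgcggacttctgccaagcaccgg
DSN1, chr20:36773744-36773863, minus strand: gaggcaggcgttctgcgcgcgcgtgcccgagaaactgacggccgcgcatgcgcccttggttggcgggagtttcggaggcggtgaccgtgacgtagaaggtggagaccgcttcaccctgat
CENPC, chr4:67545484-67545603, minus strand: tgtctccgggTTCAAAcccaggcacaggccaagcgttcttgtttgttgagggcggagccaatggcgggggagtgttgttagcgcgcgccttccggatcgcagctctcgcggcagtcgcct
In these 6 windows the letters begin 3 bases before the start of NDC80, 23 before that of BUB1B, 18 before that of CENPA and 90 before that of CENPC, and the SPC24 and DSN1 windows hold none. Over the full windows, TTTGAA on either strand was found in 14 of the 29 genes, or 48.3%, and in 15.4% of 27305 RefSeq promoters. CCAAT on either strand was found in 17 of 29, or 58.6%, against 35.7% of all promoters. TTCCCGCC, a form of the E2F site, was found in 5 of 29, or 17.2%, against 3.18%. Some members have several listed starts, of which the first was used. Of the 17 matched genes at least 2-fold lower at 5 μM, 9 held TTTGAA, as did 5 of the other 12, so the letters were present in both sets. These are matches of letters and were not tested as sites.

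In the control libraries the 36 genes spanned a wide range of levels. On the RPKM scale, which is per length, ZWINT was highest in both controls, at 138 in scramble and 102 with DMSO, and CENPP lowest, at 2.45 and 1.37. CENPF, a large protein of the outer corona, stood at 43.4 and 78.5 RPKM, and CENPW, a histone-fold protein of the CCAN, at 34.1 and 45.0. The 4 subunits of the rod-shaped Ndc80 complex, which assemble with 1 copy of each, were not at equal RPKM: NDC80 had 24.4, NUF2 30.0, SPC24 19.5 and SPC25 17.6 in scramble. With DMSO the order was different, with SPC24 highest at 39.2 and SPC25 lowest at 13.6. RPKM values of the 2 experiments were calculated separately by the authors.

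CDK16 knockdown was accompanied by modestly lower levels of much of the set. With CDK16-sh1, 29 of the 36 genes were below scramble and their median log2 fold change was −0.47, beside 0.00 over all genes tested. In CDK16-sh2, 25 were below and the median was −0.27, beside 0.02. Few changes were large: 1 gene was at least 2-fold lower in CDK16-sh1, where 6.86% of all genes were, and 3 were in CDK16-sh2 (CENPH, CENPW and CASC5), where 7.62% were. No member was 2-fold higher in either line, against 4.33% and 2.2% of all genes. Both lines share the scramble library. Below it in both were 20 genes, or 55.6%, against 30.9% of all genes, and above it in both were 2, CENPT and SPC24, against 32.2%.

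**Figure D1:**
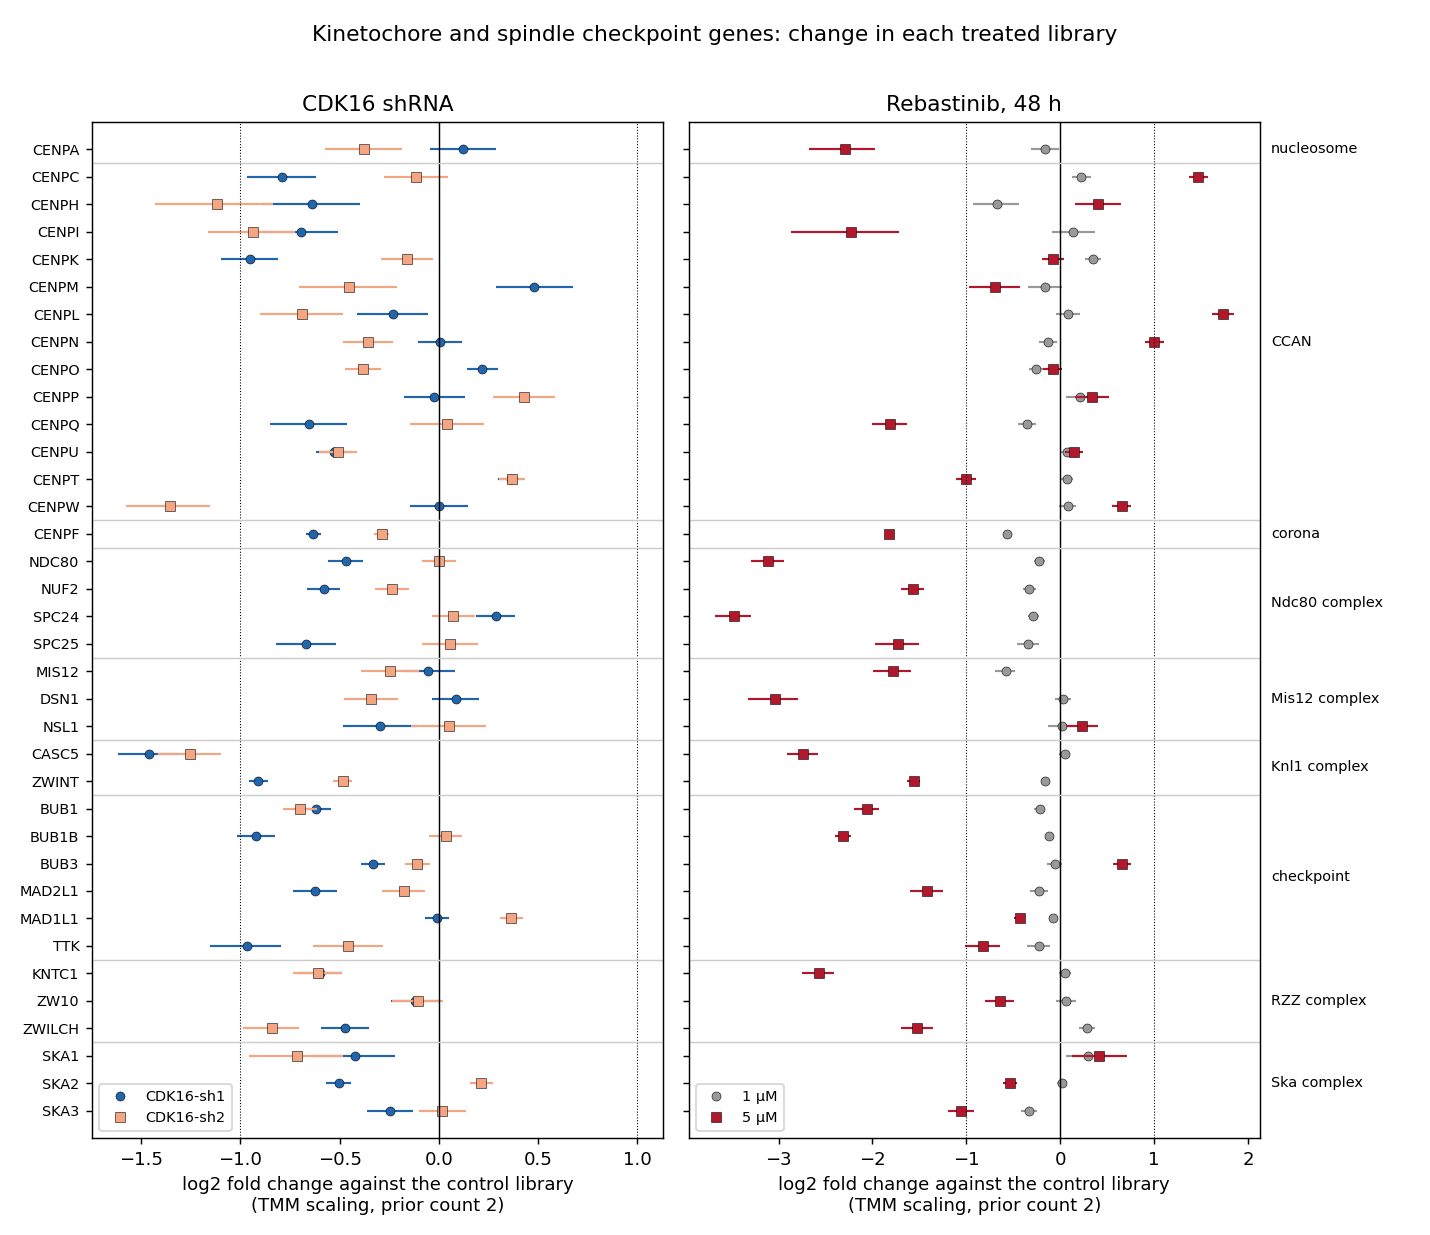
Log2 fold change of each of the 36 genes against its own control library, with CDK16-sh1 and CDK16-sh2 on the left and 1 μM and 5 μM Reb on the right. Horizontal bars are 95% counting intervals, dotted lines mark 2-fold, grey lines separate the complexes, and 1 library stands behind each point. CASC5 is past 2-fold in both hairpin lines, and at 5 μM 19 genes lie left of the lower dotted line.

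CASC5 was the 1 gene at least 2-fold lower in both hairpin lines, where 1.44% of all genes were, and no member was 2-fold higher in both, against 0.438%. It encodes KNL1, the scaffold on which phosphorylated motifs dock BUB1 and BUB3, and lies on chromosome 15 from 40594020 to 40664342 (GRCh38, plus strand). Its 1188 counts in scramble stood against 521 with CDK16-sh1 and 462 with CDK16-sh2. The log2 fold changes were −1.46 (95% interval −1.62 to −1.32) and −1.25 (−1.41 to −1.10). The intervals given for single genes are exact Clopper-Pearson intervals of the counts and cover counting error only. Once the trend of the fold changes on GC content and gene length was removed, the values were −0.90 and −0.93, and CASC5 was no longer past 2-fold. ZWINT, the partner of KNL1 that links it to the RZZ complex, had 8491, 5474 and 5635 counts, log2 fold changes of −0.91 and −0.48.

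Within the Ndc80 complex, which makes the main contact with the microtubule, the hairpin lines differed. NUF2 was below scramble in both lines, with 2606, 2110 and 2055 counts and log2 fold changes of −0.58 and −0.24. SPC24 was above scramble in both, with 1432, 2117 and 1399 counts and values of 0.29 and 0.07, the latter with a counting interval that includes 0. NDC80 was at −0.47 with CDK16-sh1 and 0.00 with CDK16-sh2, and SPC25 at −0.67 and 0.06. In the Mis12 complex, which joins the inner kinetochore to the outer, MIS12 had 850, 993 and 666 counts (−0.05 and −0.24) and NSL1 473, 467 and 455 (−0.29 and 0.05), so neither was far from its control.

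Of the 9 checkpoint and RZZ genes, 9 were below scramble with CDK16-sh1, where 50.1% of all genes were. With CDK16-sh2 it was 7, against 48.6%. The counting intervals of 7 and 6 of them lay below scramble, and the share of all genes with such intervals was not counted. TTK, the kinase that starts checkpoint signalling, had 671, 414 and 454 counts, log2 fold changes of −0.97 and −0.46. BUB1, a kinase that binds KNL1, was at −0.62 and −0.70, MAD2L1 at −0.62 and −0.18 and BUB3 at −0.33 and −0.11. MAD1L1, whose product recruits MAD2 to the kinetochore, was level in CDK16-sh1 and higher in CDK16-sh2, with 4268, 5140 and 5108 counts (−0.01 and 0.37). In the RZZ complex, which brings MAD1 and dynein to kinetochores, ZWILCH was lowest on average, with 1205, 1053 and 623 counts (−0.47 and −0.84), and ZW10 closest to the control, with 1038, 1158 and 895 (−0.12 and −0.11, intervals that include 0). KNTC1, the ROD subunit, stood at −0.60 and −0.61. In the Ska complex, which follows the ends of shortening microtubules, SKA1 had 411, 371 and 232 counts (−0.42 and −0.71) and SKA3 1200, 1227 and 1129 (−0.24 and 0.02).

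The inner kinetochore held genes on both sides of the control. CENPA, the centromeric histone, had 526, 693 and 376 counts (0.12 and −0.38). Of the 13 CCAN genes, 7 were below scramble in both lines. CENPH was lowest on average, with 316, 245 and 134 counts and log2 fold changes of −0.64 (interval −0.89 to −0.40) and −1.12 (−1.43 to −0.83). CENPT, which binds the Ndc80 complex directly, was highest on average, with 3441, 5361 and 4128 counts (0.36 and 0.37). The exons of CENPT share 19.6% of their bases with genes on the opposite strand, and whether strand was used in counting is not given in the sources used here. CENPF had 13115, 10245 and 9980 counts and was below scramble in both lines, at −0.63 and −0.29.

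The largest differences between the hairpins were those of CENPW, BUB1B and CENPM. CENPW went from 701 counts in scramble to 849 with CDK16-sh1 and 253 with CDK16-sh2 (log2 fold changes 0.00 and −1.36, interval of the latter −1.58 to −1.15). BUB1B, which encodes the checkpoint protein BUBR1, went the other way, with 2300, 1471 and 2187 counts, −0.92 (−1.02 to −0.83) and 0.03. CENPM had 341, 577 and 231 counts, above scramble in CDK16-sh1 (0.48) and below it in CDK16-sh2 (−0.45). Each of these differences was larger than counting error, and with 1 library per line the spread between cultures of the same line is unknown. CENPW was low with CDK16-sh2 and BUB1B with CDK16-sh1.

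With both hairpin lines as 1 group against scramble, the edgeR quasi-likelihood test, Benjamini-Hochberg adjusted over 15295 genes, called 0 of the 36 genes (adjusted p-value up to 0.05, change of 2-fold or more) and 0% of all genes. At an unadjusted p-value under 0.05 there was 1 of the 36, CASC5, and 382 genes in all. DESeq2 also called 0 genes.

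In CDK16-sh1 the change of a gene moved with its GC content. Across genes, which are not independent replicates, Pearson r was 0.44 over all genes with a known GC content and 0.67 over the 36. In CDK16-sh2 these values were 0.12 and 0.28. The 36 genes are AT-rich, with a median exonic GC content of 41.4% against 48.6% of all genes, and 17 of them are in the lowest GC quintile of all genes. Those 17, which include NDC80, NUF2, SPC25, CASC5, TTK and MAD2L1, had a median of −0.62 in CDK16-sh1, beside −0.41 for all genes of that quintile. In the next quintile, 10 of the genes had a median of −0.29, beside −0.23. With the trend on GC content and gene length removed, the median of the 36 genes was −0.15 in CDK16-sh1, beside 0.04 over all genes, and −0.13 in CDK16-sh2, beside 0.10. The levels of CDK16-sh1 thus moved with GC content, and its part in them was not tested further.

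**Figure D2:**
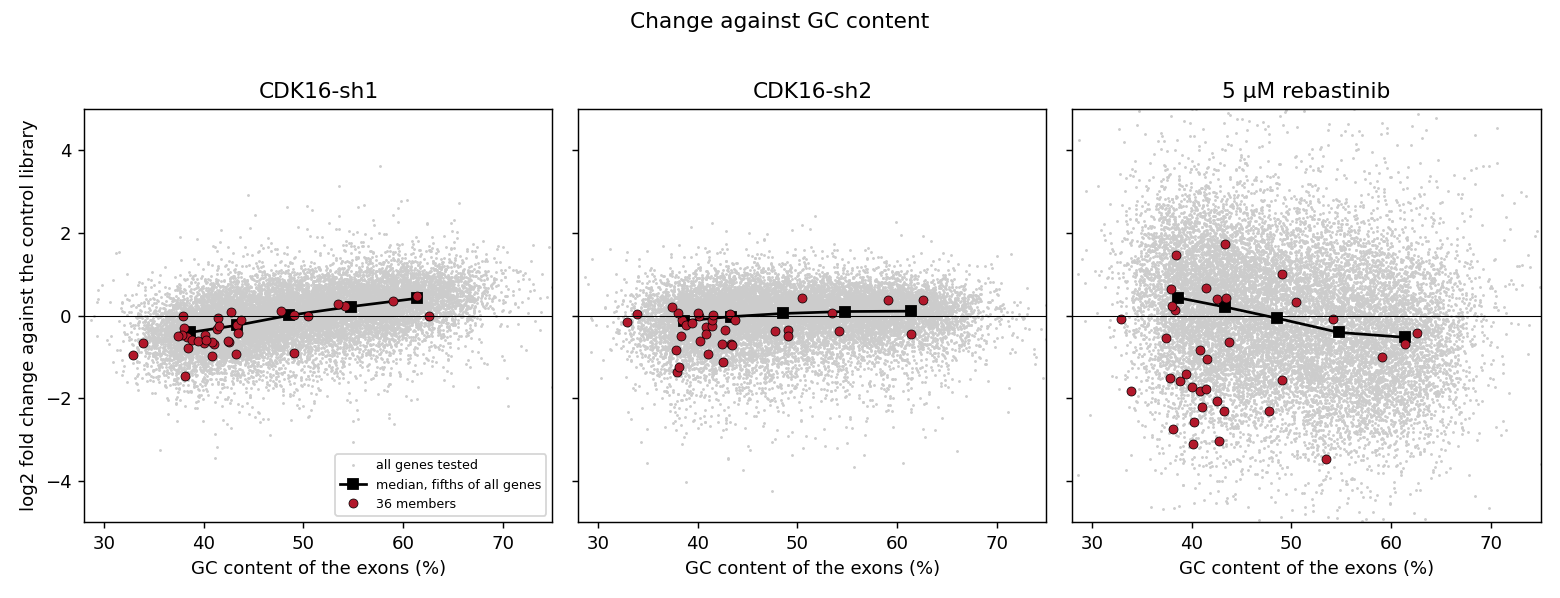
Log2 fold change against the GC content, in percent, of the exons of a gene's longest transcript, for CDK16-sh1, CDK16-sh2 and 5 μM Reb. Grey dots are all genes tested, black squares the medians of GC quintiles of all genes, and red circles the 36 genes. In CDK16-sh1 the red circles follow the rising black line, while at 5 μM most of them lie below a falling one.

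At 1 μM Reb the set was close to DMSO. At this dose 20 genes were below DMSO and 16 above, with a median log2 fold change of −0.10 beside 0.00 over all genes, and 0 were at least 2-fold lower or higher, against 1.92% and 1.28% of all genes. The values ran from −0.68 for CENPH to 0.34 for CENPK. All 4 Ndc80 complex genes were below DMSO, between −0.34 (SPC25) and −0.22 (NDC80), with counting intervals below 0. The 6 checkpoint genes were between −0.23 and −0.06, and 5 of their intervals were below 0. Of all genes 49.8% were below DMSO at this dose, and the share with such intervals was not counted. The 3 RZZ genes were above DMSO, at 0.05 for KNTC1, 0.06 for ZW10 and 0.28 for ZWILCH, and the intervals of KNTC1 and ZW10 included 0. CENPF (46185 counts with DMSO and 31651 at 1 μM, −0.57) and MIS12 (1766 and 1197, −0.58) were the lowest after CENPH.

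At 5 μM Reb, 19 of the 36 genes were lower than with DMSO by 2-fold or more, where 27.2% of all genes were, and 3 were at least 2-fold higher, where 23.6% were. The median was −1.03, beside −0.07 over all genes. The outer kinetochore held most of the low genes: 8 of the 9 KMN network genes were at least 2-fold lower, with a median of −1.78, and 5 of the 9 checkpoint and RZZ genes, with a median of −1.42. In the CCAN 3 genes were 2-fold lower and 3 were 2-fold higher, 23.1% each and near the shares of all genes, with a median of 0.14. The difference between these layers was not tested. Changes at 5 μM depend on the scaling. The 100 most abundant genes took 35.3% of the counts there, against 24.3% with DMSO, and the part of this in the scaling was not tested. Scaled by library totals, all genes had a median of −0.75 and the 36 genes one of −1.72, with 24 at least 2-fold lower and 1 higher, where 43.4% and 11.7% of all genes were. This change of scaling moves the log2 fold changes of all genes by nearly the same amount. By construction, then, the 19 genes were among those 24. The distance between the medians, −0.96 under TMM and −0.97 under library totals, could hardly change either, so neither is a check on the scaling.

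**Figure D3:**
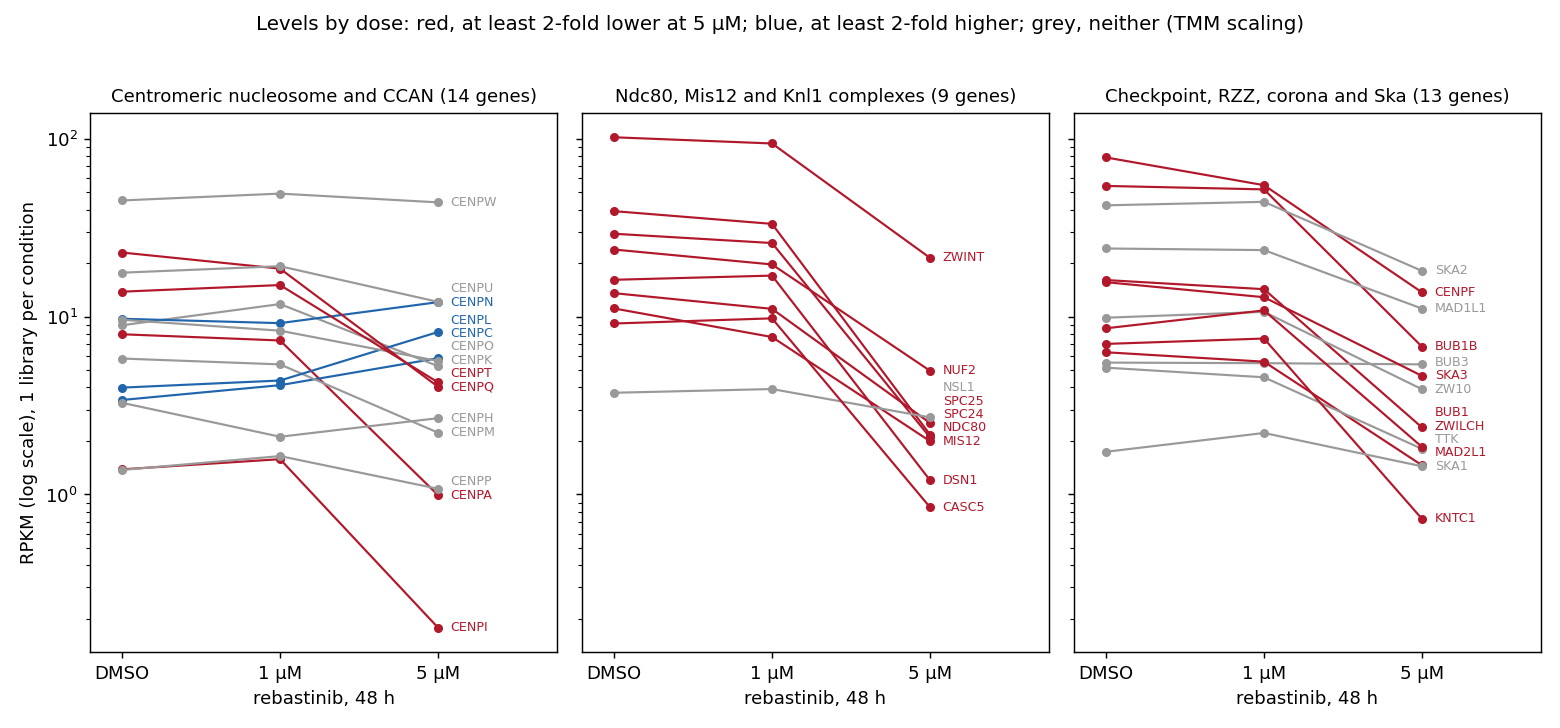
RPKM of each gene on a log axis in the DMSO, 1 μM and 5 μM libraries, with the inner kinetochore on the left, the KMN network in the middle and the other genes on the right. Lines join the values of 1 gene, and colors give the 2-fold calls of the TMM-scaled counts, red for lower at 5 μM, blue for higher and grey for neither. In the KMN network all lines end lower at 5 μM than with DMSO, NSL1 by the least, whereas in the inner kinetochore CENPL, CENPC and CENPN lie above DMSO.

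The Ndc80 complex was low at 5 μM in all of its subunits. SPC24, which lies on chromosome 19 from 11131520 to 11155808 on the minus strand, went from 5596 counts with DMSO to 4658 at 1 μM and 232 at 5 μM. At 5 μM it was at a log2 fold change of −3.48 (interval −3.68 to −3.29), the lowest of the 36 genes. NDC80, the subunit that binds the microtubule and whose promoter is printed above, had 5297, 4609 and 284 counts, a log2 fold change of −3.11 (−3.29 to −2.94). Both were slightly below DMSO at 1 μM and far below it at 5 μM. NUF2, which pairs with NDC80, had 4032, 3262 and 628 counts (−1.57), and SPC25, the partner of SPC24, was at −1.73. On the RPKM scale the 4 subunits ranged from 13.6 to 39.2 with DMSO and from 2.10 to 4.96 at 5 μM.

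The rest of the KMN network had 1 exception. DSN1, a Mis12 complex subunit on chromosome 20 from 36751791 to 36773818 (minus strand), went from 2220 counts with DMSO to 2300 at 1 μM and 124 at 5 μM (log2 fold change −3.04, interval −3.33 to −2.79). CASC5 had 4718, 4949 and 327 counts (−2.74, interval −2.91 to −2.58) and ZWINT 12197, 11048 and 1916 (−1.56). For DSN1 and CASC5 the 1 μM library was level with DMSO and the 5 μM library alone was low. The exception was NSL1 of the Mis12 complex, with 768, 791 and 418 counts, which is 0.23 after TMM scaling, while its RPKM was 3.73 with DMSO and 2.71 at 5 μM. MIS12 was at −1.78.

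Among the checkpoint genes BUB1B was lowest, with 12228, 11475 and 1142 counts and a log2 fold change of −2.31 (−2.40 to −2.22) at 5 μM. Its exons share 10.2% of their bases with the readthrough gene BUB1B-PAK6 on the same strand. BUB1 was at −2.06 and MAD2L1, whose product forms the inhibitor of the anaphase-promoting complex, at −1.42. TTK (−0.83) and MAD1L1 (−0.43) were below DMSO by less than 2-fold. BUB3, the WD-repeat partner of BUB1 and BUBR1, had 2303, 2243 and 1685 counts. That is 0.66 after TMM scaling and no rise in RPKM, which was 5.52, 5.47 and 5.39.

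The RZZ and Ska complexes and the corona were also uneven. KNTC1 had 4002, 4211 and 311 counts, a log2 fold change of −2.57 (−2.75 to −2.41) at 5 μM. ZWILCH was at −1.52, and ZW10, which also acts in membrane traffic between the Golgi and the endoplasmic reticulum, had 1484, 1572 and 440 counts (−0.64). The 3 RZZ genes thus shared a direction at 5 μM and differed in size by more than their counting intervals. In the Ska complex SKA3 had 2395, 1935 and 533 counts (−1.06), SKA2 was at −0.53 and SKA1 had 258, 323 and 160 counts (0.42). SKA3 was at −0.99 with DESeq2 size factors, just inside 2-fold. CENPF had 46185, 31651 and 6029 counts and was below DMSO at both doses, at −0.57 and −1.83 (−1.87 to −1.79).

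The inner kinetochore held genes on both sides of DMSO at 5 μM, at shares near those of all genes. Of its 14 genes, 4 were at least 2-fold lower, or 28.6%, against 27.2% of all genes. At least 2-fold higher were 3, or 21.4%, against 23.6%, and the median was 0.04, beside −0.07. CENPA had 794, 719 and 74 counts, a log2 fold change of −2.30 (−2.68 to −1.97), and 6.96% of its exonic bases are shared with SLC35F6. In the CCAN, CENPI was at −2.22 with 29 counts left at 5 μM from 301 with DMSO, and CENPQ had 1999, 1592 and 263 counts (−1.81, interval −2.01 to −1.63). CENPT was 2.01-fold lower. Its log2 fold change was −0.94 with DESeq2 size factors and −0.34 with the trend on GC content and gene length removed, both short of 2-fold. These 4 genes were the ones of the layer past 2-fold lower.

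In the CCAN, 3 genes were at least 2-fold higher at 5 μM, or 23.1%, close to the 23.6% of all genes. CENPL went from 986 counts with DMSO to 1061 at 1 μM and 1517 at 5 μM (log2 fold change 1.73, interval 1.61 to 1.85). CENPC, the long linker protein between CENP-A nucleosomes and the Mis12 complex, had 1473, 1751 and 1894 counts (1.47, interval 1.37 to 1.57). CENPN, which binds the CENP-A nucleosome and pairs with CENP-L, had 1746, 1619 and 1621 counts (1.00, interval 0.90 to 1.10). The counts of CENPL and CENPC were higher at 5 μM although the library total was smaller, and those of CENPN were nearly level. In RPKM, CENPL went from 3.99 to 8.20, CENPC from 3.40 to 5.84 and CENPN from 9.73 to 12.1. Under library totals CENPL alone remained past 2-fold, and these 3 were the members that stayed above DMSO. CENPC, CENPN, CENPI and CENPT were singled out here after their values were seen.

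Partners within the CCAN did not move as units at 5 μM. In the group of CENPH, CENPI, CENPK and CENPM, the log2 fold changes were 0.40, −2.22, −0.07 and −0.69. In that of CENPO, CENPP, CENPQ and CENPU they were −0.08, 0.34, −1.81 and 0.14. In the histone-fold pair CENPT was lower and CENPW stood at 0.65, whereas CENPL and CENPN, which also pair, were both higher. CENPO, CENPP and CENPU share 31.4%, 39.5% and 11.7% of their exonic bases with genes on the opposite strand, and CENPN 12.8%.

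At 5 μM the genes lowest in GC were on average above DMSO and these members were not. All genes of the lowest GC quintile had a median of 0.43 there, while the 17 members in it had one of −1.52. With the trend on GC content and gene length removed, the median of the 36 genes was −1.32, with 20 at least 2-fold lower and 3 higher, where 25.6% and 22.2% of all genes were.

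Against DMSO, which both doses share, 0 genes were at least 2-fold lower at both doses, where 1.08% of all genes were, and 0 higher at both, against 0.645%. Below DMSO at both doses were 17, or 47.2%, against 30.9% of all genes, and above it at both were 7, against 29.3%. With both doses as 1 group, the edgeR quasi-likelihood test (Benjamini-Hochberg adjusted) called 0 of the 36 genes, against 0.00639% of all genes lower and 0.0703% higher. At an unadjusted p-value under 0.05 there were 0 of the 36, and DESeq2 called 0 of them, against 0.0256% of all genes lower and 0.083% higher. In this test the difference between the doses counts as spread. When dose entered as a linear term, log2(dose + 1), over the 3 libraries, 14 genes were called lower, where 11.1% of all genes were, and 2 higher (CENPC and CENPL), where 13.3% were. The smallest adjusted p-value was 0.000399 for SPC24 (edgeR quasi-likelihood test), with a fitted change of −3.69 from 0 to 5 μM. NDC80 followed with an adjusted p of 0.00102 and DSN1 with 0.00170. That fit has 1 residual degree of freedom. Its spread comes from distances from a straight line in log2(dose + 1), which edgeR moderates over all genes, and not from replicates.

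Other genes of the same processes were counted beside the set. Of 39 further kinetochore and checkpoint genes, 21, or 53.8%, were at least 2-fold lower at 5 μM, against 27.2% of all genes. Their median was −1.07. Of 25 G2 and M phase genes it was 17, or 68%, with a median of −1.52. Of 32 S phase genes it was 20, or 62.5%, with a median of −1.38. At 1 μM the medians were −0.08, −0.24 and 0.12. In CDK16-sh1 they were −0.29, −0.40 and −0.30, and in CDK16-sh2 −0.11, −0.34 and −0.71. With CDK16-sh2, 9 S phase genes, or 28.1%, were at least 2-fold lower, against 7.62% of all genes. The median of the 36 genes at 5 μM, −1.03, was close to that of the further kinetochore genes and above those of the phase lists, and these differences were not tested. In these lists of 39, 25 and 32 genes, 1 was at least 2-fold lower in both hairpin lines, where 1.44% of all genes were. It was TOP2A, the topoisomerase that resolves sister chromatids, with 13080, 6660 and 5071 counts. At both doses 1 listed gene was at least 2-fold lower, where 1.08% of all genes were. It was AURKB, the kinase that corrects faulty attachments, with 3954, 1997 and 78 counts. At 1 μM AURKB was only just past 2-fold, at a log2 fold change of −1.01 under TMM.

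**Figure D4:**
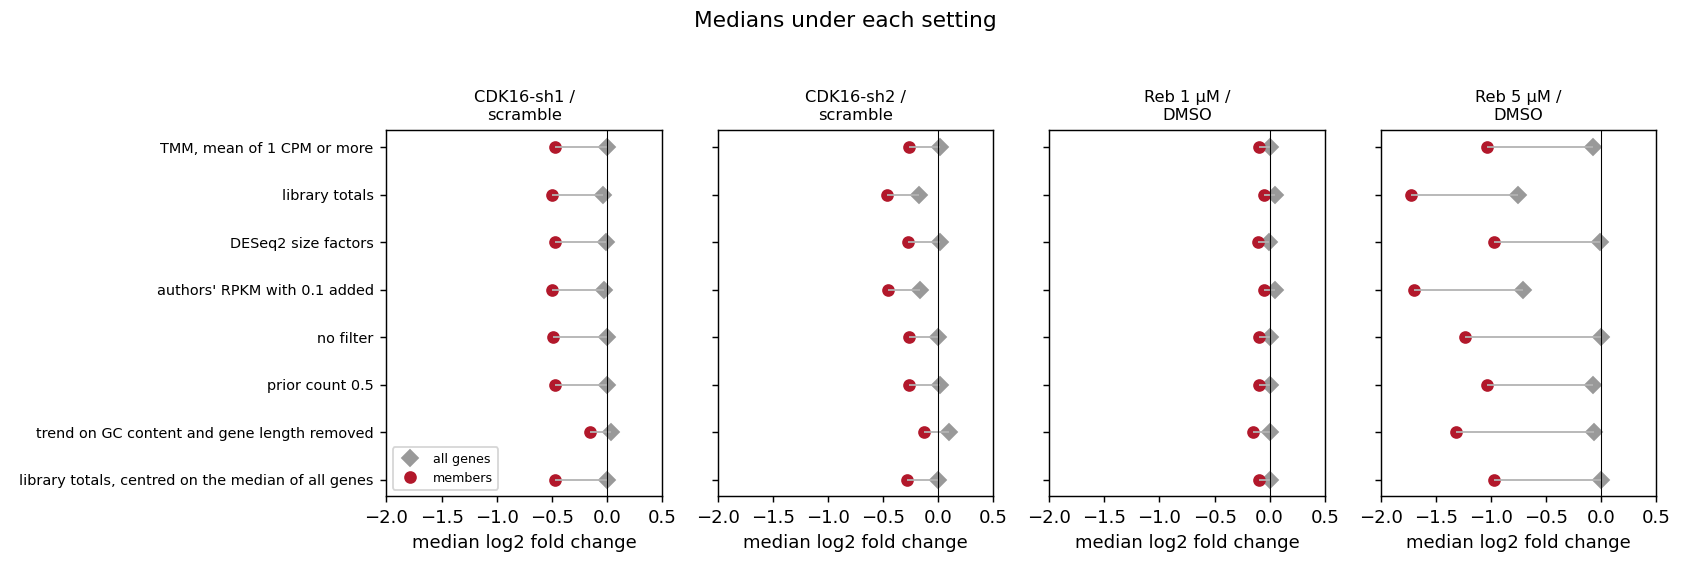
Median log2 fold change of the 36 genes (red circles) and of all genes tested (grey diamonds) in each treated library under 8 settings, with a line joining the 2 medians. At 5 μM scaling by library totals or RPKM moves both medians to the left by a similar amount, as a change of library scaling does by construction. In CDK16-sh1 removing the trend on GC content and gene length brings the red circle from −0.47 to −0.15.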

How the data were processed

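The 36 genes, the lists and the tests were chosen with earlier results of these data known. The authors prepared stranded mRNA libraries, sequenced them on a HiSeq X 10 and deposited whole-number counts per gene, without normalization, and RPKM values calculated from those counts. The submitters' processing notes name Trimmomatic, featureCounts and Subread 1.5.1 and the build GRCh38. The aligner settings, the strand setting of the counting and the annotation release are not given in the sources used here. Coordinates are those of the deposited tables, and exon overlap was calculated from them. GC content is that of the longest transcript of each gene in GENCODE 29, which matched all 36 genes. Promoters came from RefSeq (GRCh38.p14).

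Counts were scaled with TMM in edgeR 4.0.16 (R 4.3.3) over the 3 libraries of an experiment, genes averaging 1 CPM or more were kept, and log2 fold changes used a prior count of 2. Intervals are 95% exact Clopper-Pearson intervals. They cover counting error only and take reads as independent, which was not checked. With 1 library per condition, tests took both treated libraries as 1 group (edgeR quasi-likelihood test, adjusted p up to 0.05 and 2-fold or more), with DESeq2 1.42.0 and a dose term as alternatives. The other alternatives were library totals, DESeq2 size factors, the authors' RPKM with 0.1 added, no filter, a prior count of 0.5, a fold threshold of 1.5 and removal of spline trends (4 degrees of freedom) on GC content and length. Library totals centred on the median of all genes were added after the data were seen. The code was tested on simulated data. By rule, counts are given for genes 2-fold from the control in both treated libraries, the highest and lowest of each role by the mean of both, and the 3 with the largest difference between treated libraries. Counts of MIS12, CENPC, CENPN and CENPI in the Reb experiment, and the other members named, were added after their values were seen.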

Additional observations from a re-analysis of the deposited data

Results flagged for a closer look

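In all, 7 genes had counting intervals on opposite sides of the control in the 2 treated libraries of an experiment. The difference was not tested in any of them, since each library stands alone. The share of all genes with such intervals was not counted. By fold change alone, 14 of the 36 genes were not on the same side in both hairpin lines, against 5634 of 15295 genes. For the doses it was 12 of the 36, against 6232 of 15655 genes. Between the hairpins, the log2 level in CDK16-sh2 minus that in CDK16-sh1 was −0.93 for CENPM, −0.60 for CENPO and 0.72 for SKA2, so CENPM and CENPO were above scramble with CDK16-sh1 alone and SKA2 with CDK16-sh2 alone. Between the doses, the log2 level at 5 μM minus that at 1 μM was 1.08 for CENPH and 1.13 for CENPN, which were below DMSO at 1 μM and above it at 5 μM. CENPH was on 1 side only under library totals, at −0.63 and −0.29, in RPKM with 0.1 added, at −0.61 and −0.28, and with the trend on GC content and length removed, at −0.77 and −0.12. The other 6 genes kept opposite signs under all settings run, 2 of them barely. CENPM was at 0.0017 in CDK16-sh1 with that trend removed, and SKA2 at 0.018 in CDK16-sh2 under library totals and in RPKM. The intervals are those of TMM scaling only. The difference between the doses was −1.08 for CENPT and −1.81 for ZWILCH, which were above DMSO at 1 μM and below it at 5 μM. For CENPO, CENPN, CENPT and ZWILCH, 31.4%, 12.8%, 19.6% and 10.9% of the exonic bases are shared with genes on the opposite strand, and the part of this overlap was not tested.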

How the results depend on the processing

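No median of the 36 genes changed its sign under any alternative run. Of the medians and counts over the 36 genes, 101 values stayed close while 19 moved. The share 2-fold lower in CDK16-sh2 did not keep its place beside all genes. It was 8.33% against 7.62%, and 5.56% against 6.19% with the trend on GC content and length removed. Library totals moved the median to −0.46 in CDK16-sh2 and −1.72 at 5 μM, with 5 genes 2-fold lower in CDK16-sh2 (13.9%, against 11.1% of all genes) and 1 higher at 5 μM (2.78% against 11.7%). The authors' RPKM gave −0.46 and −1.70, with 5 and 1 genes (9.60% and 11.1% of all genes). Without a filter the 5 μM median was −1.23. Removing the trend on GC content and length gave medians of −0.15 in CDK16-sh1, −0.13 in CDK16-sh2 and −1.32 at 5 μM, and left 0 genes 2-fold lower with both hairpins. At a threshold of 1.5-fold, 14 genes were lower in CDK16-sh1 (38.9%, against 18.8% of all genes), 9 in CDK16-sh2 (25.0% against 16.8%), 5 in both (13.9% against 6.49%) and 1 at 1 μM (2.78% against 7.19%), and 5 were higher at 5 μM (13.9% against 33.1%). With both doses as 1 group 0 genes were called, and with dose as a linear term 16. Lower thresholds admit more genes by construction, and for the other moves the cause was not tested. Of the values for single genes, 74 stayed within their counting interval and 82 moved beyond it.

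No paired analysis was possible because each condition had 1 library and the labels give no replicate numbers. Leaving out a library was not possible either, for the same reason. The main limits are the single library per condition, the concentration of counts on few genes at 5 μM and low counts there, such as the 29 counts of CENPI.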

Other observations

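The scramble and DMSO libraries are both controls of the same cell line, and the set differed between them no more than all genes did. In RPKM with 0.1 added, from tables normalized separately, 7 of the 36 genes differed by at least 2-fold, as did 19.8% of all 14414 genes compared, and the median absolute log2 difference was 0.42, beside 0.51 over all genes. BUB3 was at 20.9 RPKM in scramble and 5.52 with DMSO, a log2 ratio of −1.90. CENPI stood at 4.75 and 1.38, SKA1 at 5.39 and 1.74, and BUB1B at 19.9 and 54.3. For scale, the median absolute log2 fold change of the 36 genes was 0.48 in CDK16-sh1, 0.36 in CDK16-sh2, 0.19 at 1 μM and 1.44 at 5 μM. The controls differ in lentiviral infection, sorting and experiment, which cannot be told apart.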
